A study of Mus musculus with 6 samples.

Results

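The expression of 10 marker genes of resident-like macrophages was examined in RNA-seq of tumor-associated macrophages (TAMs). The genes were Mrc1, Cd163, Stab1, Lyve1, Folr2, Timd4, Selenop, F13a1, Fcna and Cbr2, and each was matched by its symbol to 1 of the 55421 Ensembl genes in the raw count table. They were listed with earlier results of the same genotype comparison known, so the difference between the genotypes is given for them as a description, without a test.

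TAMs were sorted as live CD45+CD11b+F4/80+Ly6G- cells from subcutaneous fibrosarcomas (M17 in the labels, MC17-51 in the methods of the study), which were collected on day 15 after implantation. The Pdcd1f/f group (3 libraries) came from mice with loxP-flanked alleles of Pdcd1, the gene of the inhibitory receptor PD-1, without Cre, and served as the control. The Pdcd1f/fLysMcre group (3 libraries) carried the same floxed alleles together with Cre under the lysozyme (LysM) promoter, which is active in myeloid cells in general and not in macrophages alone. Both groups therefore carried the floxed alleles and bore the same tumor, mice were implanted at 8 to 12 weeks of age, and the strain background of the floxed mice is not given in the sources used here. The labels do not say that the libraries of a genotype came from separate mice, so p-values measure the spread between these libraries, which may be technical.

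Resident macrophages settle in most tissues, where they renew locally or are replaced slowly from blood monocytes, and they clear debris, iron, hyaluronan and dying cells. Many of them carry endocytic receptors such as CD206 and CD163 together with LYVE1 and folate receptor beta, and macrophages with these markers are often found along blood vessels. In tumors such cells are found beside macrophages that have newly differentiated from infiltrating monocytes, and the same markers can be acquired by monocyte-derived cells, so that the markers describe a state and do not prove an origin.

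Library totals ranged from 41833823 to 51417209 counts. Pdcd1 itself had raw counts of 10, 12 and 15 with the Pdcd1f/f genotype, against 7, 16 and 11 with Pdcd1f/fLysMcre (log2 fold change -0.25, SE 0.45, edgeR adjusted p = 0.771), so its deletion could not be checked at this depth. Lyz2, the locus into which LysM Cre is inserted, had between 207974 and 225226 normalized counts in Pdcd1f/f and between 405 and 465 in Pdcd1f/fLysMcre libraries, as the labels say. The summed Y-linked transcripts Ddx3y, Eif2s3y, Kdm5d and Uty ranged from 1545 to 1914 normalized counts in Pdcd1f/f and from 6267 to 7233 in Pdcd1f/fLysMcre, and Xist from 17318 to 26511 and from 8530 to 13137. Every library thus held both male and female transcripts, with more of the male ones in Pdcd1f/fLysMcre. The study reports equal numbers of male and female mice, and whether a library pools several mice is not given in the sources used here. The mix of the sexes and the genotype cannot be told apart. Pdcd1f/f replicate 1 and Pdcd1f/fLysMcre replicate 2 are called the libraries that stood apart, by the sign of a correlation. In these libraries the deviation of a gene from its genotype mean went down with the GC content of the gene (Spearman correlations of -0.58 and -0.49 across 14454 genes, which are not independent replicates), whereas the correlations were between 0.12 and 0.51 in the other libraries. Deviations within a genotype cancel out, so a difference in sign among its libraries is largely built in. Pdcd1f/fLysMcre replicate 3 (0.50) lay as far from the middle as replicate 2, so the choice of replicate 2 is a matter of sign.

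The sequences upstream of the genes are shown as a description, and shared control of the members was not tested. RefSeq promoter windows (GRCm38.p6) were matched by symbol for 9 of the 10 members, 13 windows in all, and Lyve1 is named only. The 250 bases before the RefSeq start are printed for Cd163, which had the largest log2 fold change among the members, for the secreted F13a1 and the scavenger receptor gene Stab1, which lay in the middle of the lower members, and for Timd4, which was too low to compare. These windows lie wholly before the gene bounds given below, whereas the windows of Mrc1, Cbr2 and Fcna run in part into them and are not printed. Each runs 5′ to 3′ on the strand of the gene, and capitals mark matches to the motifs named after them.
Cd163, chr6:124304401-124304650, strand +: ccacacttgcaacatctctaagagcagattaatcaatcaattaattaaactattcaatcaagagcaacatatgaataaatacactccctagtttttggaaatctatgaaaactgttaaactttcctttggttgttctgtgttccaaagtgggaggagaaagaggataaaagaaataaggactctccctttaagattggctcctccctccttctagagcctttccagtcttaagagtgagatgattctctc
F13a1, chr13:37050245-37050494, strand -: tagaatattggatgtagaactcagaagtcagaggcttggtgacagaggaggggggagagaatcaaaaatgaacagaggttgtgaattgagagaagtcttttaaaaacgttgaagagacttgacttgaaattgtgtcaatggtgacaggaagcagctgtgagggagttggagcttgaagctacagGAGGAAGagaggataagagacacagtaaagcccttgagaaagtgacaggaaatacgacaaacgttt
Stab1, chr14:31168642-31168891, strand -: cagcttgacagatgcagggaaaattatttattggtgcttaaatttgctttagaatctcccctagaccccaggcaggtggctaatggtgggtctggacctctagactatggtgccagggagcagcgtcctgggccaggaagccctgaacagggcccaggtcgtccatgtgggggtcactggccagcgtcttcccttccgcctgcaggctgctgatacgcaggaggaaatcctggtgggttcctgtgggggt
Timd4, chr11:46810549-46810798, strand +: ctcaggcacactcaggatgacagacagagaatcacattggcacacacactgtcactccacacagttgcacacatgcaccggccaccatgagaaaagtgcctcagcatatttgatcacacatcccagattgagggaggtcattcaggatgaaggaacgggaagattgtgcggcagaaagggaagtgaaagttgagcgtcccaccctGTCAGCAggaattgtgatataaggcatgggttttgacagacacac

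Exact letters were searched on both strands for a motif of the MAF family (TGCTGAC), a site of AP-1 (TGACTCA) and a site of the PU.1 type (GAGGAAG), all of which are motifs of factors that act in macrophages. Matches to the PU.1-type letters lay in 6 of the 13 member windows, of which 2 are overlapping windows of Selenop that hold the same match, and in 10.6% of the 32851 promoter windows of the same length. The match in the printed F13a1 window began at -66 from the start. Those in the Mrc1 window began at -168 and -36, in the Cbr2 window at -79, and in the Fcna window at -182, -169 and -163, of which the last overlaps the one before it by 1 base. MAF motifs were found in 3.81% of all windows and in 2 of the member windows, at -107 in Fcna and at -45 in Timd4. AP-1 letters were in 4.46% of all windows and in 1 member window, the downstream window of Folr2, at -74. The printed Cd163 and Stab1 windows held none of these letters. A match is a description of the sequence and not a bound site.

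Of the 10 members, 9 passed the expression filter, and Timd4 did not. In Pdcd1f/fLysMcre TAMs 8 of the 9 were lower in every library than in every Pdcd1f/f library, by 19.6% for Mrc1 to 53.5% for Cd163, and Fcna was not lower. The median log2 fold change of the 9 was -0.71, beside -0.0026 over the 14469 genes tested. As background, 5.43% of all genes passed an adjusted p of 0.05 in edgeR's quasi-likelihood test, 2.42% as higher and 3.01% as lower. Over all genes tested, the libraries of the genotypes did not overlap for 27.5%, with the lower ones in Pdcd1f/fLysMcre for 12.8% and in Pdcd1f/f for 14.7%. Since the genes were picked on this contrast, nothing is read from their count against these shares. In bulk samples, fewer cells of a type and less RNA per cell cannot be told apart.

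**Figure D1:**
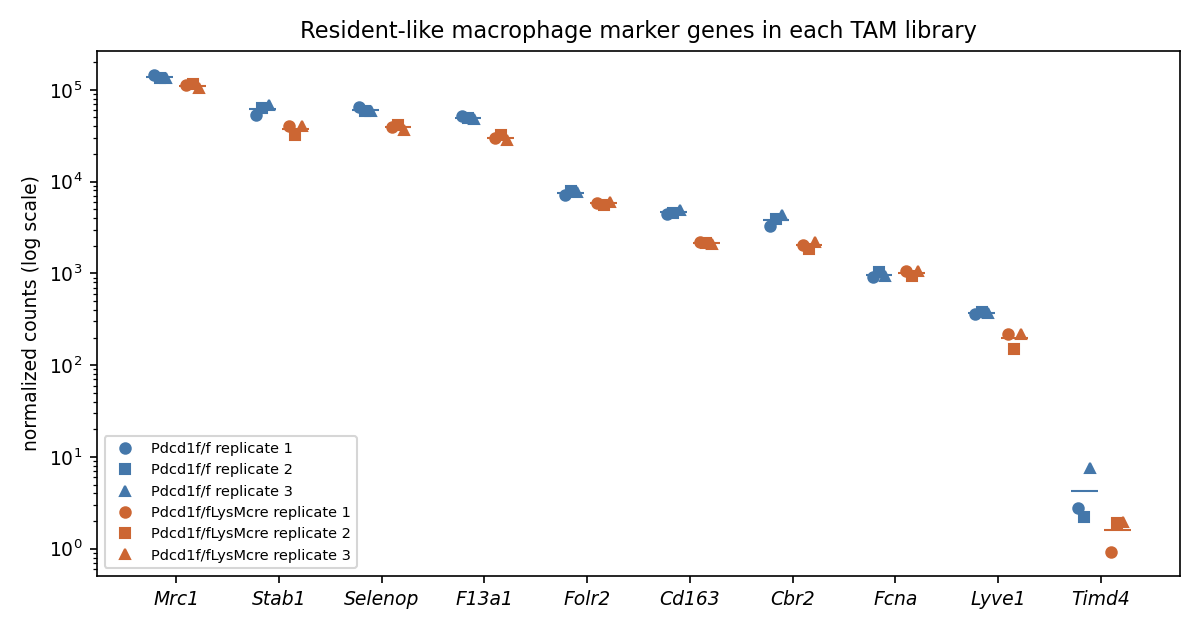
Normalized counts of the 10 members (log axis) in each of the 6 TAM libraries, with Pdcd1f/f in blue, Pdcd1f/fLysMcre in orange, a symbol for each replicate and a bar at the mean of each genotype. The orange points lie below all blue points for 8 genes, they overlap the blue ones for Fcna, and Timd4 had between 1 and 7 raw counts in each library.

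Mrc1 (ENSMUSG00000026712, GRCm38 chromosome 2, 14229392 to 14332057, plus strand) encodes the mannose receptor CD206, which takes up glycoproteins and collagen fragments. Normalized counts were 146379, 133243 and 132856 with the Pdcd1f/f genotype, and 111650, 115066 and 104754 with Pdcd1f/fLysMcre. All Pdcd1f/fLysMcre libraries were below all Pdcd1f/f libraries, although the gap between the nearest libraries was small beside the level. The mean was 137493 ± 7698 (SD, n = 3) in Pdcd1f/f and 110490 ± 5253 in Pdcd1f/fLysMcre, a log2 fold change of -0.31 with an SE of 0.07, which was the smallest difference among the lower members. It was -0.30 without the libraries that stood apart and -0.39 with offsets for GC content and length.

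Cd163 (ENSMUSG00000008845, chromosome 6, 124304656 to 124330527, plus strand) encodes the receptor that removes haemoglobin bound to haptoglobin. Normalized counts were 4429, 4576 and 4940 with the Pdcd1f/f genotype, and 2215, 2157 and 2112 with Pdcd1f/fLysMcre. The Pdcd1f/fLysMcre values were close to each other, and the lowest Pdcd1f/f library was far above the highest of them. The means were 4648 ± 263 and 2161 ± 51.7, 53.5% lower, with a log2 fold change of -1.10 (SE 0.07). Over 16 alternative fits it stayed between -1.15 and -1.06, and without the libraries that stood apart it was -1.14.

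Stab1 (ENSMUSG00000042286, chromosome 14, 31139013 to 31168641, minus strand) encodes stabilin-1, a large scavenger receptor that takes up modified lipoproteins and the matrix protein SPARC. In Pdcd1f/f replicates 1 to 3 its normalized counts were 52799, 63678 and 69034, against 40367, 32421 and 40233 in the same order for Pdcd1f/fLysMcre. The lowest value of each genotype was in the library that stood apart, and the genotypes did not overlap. The means were 61837 ± 8273 and 37674 ± 4549 (log2 fold change -0.71, SE 0.11). The log2 fold change was -0.72 without the libraries that stood apart and -0.57 with the offsets for GC content and length, the smallest value of its alternatives.

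Lyve1 (ENSMUSG00000030787, chromosome 7, 110850607 to 110863239, minus strand) encodes a receptor for hyaluronan that macrophages share with lymphatic endothelium. It was a low gene, with 361, 379 and 373 normalized counts for Pdcd1f/f, against 219, 151 and 218 for Pdcd1f/fLysMcre. Pdcd1f/fLysMcre replicate 2 was the lowest library, and the other libraries of its genotype were also below every Pdcd1f/f library. The means were 371 ± 9.26 and 196 ± 38.9 (log2 fold change -0.92, SE 0.15, the largest SE among the members). Without the libraries that stood apart the log2 fold change was -0.78. Of the 7 markers of lymphatic endothelium, Prox1, Ccl21a and Mmrn1 were at 0 in all 6 libraries and Reln, Nts and Flt4 had at most 16.4 normalized counts in a library, with Nts lower in every Pdcd1f/fLysMcre library. Pdpn, which macrophages also express, was higher in all of them. Their part in the Lyve1 difference was not tested.

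Folr2 (ENSMUSG00000032725, chromosome 7, 101839988 to 101857194, minus strand) encodes folate receptor beta, a folate-binding protein anchored in the membrane by a lipid. In Pdcd1f/f replicates 1 to 3 its normalized counts were 7108, 7932 and 7755, against 5907, 5576 and 6015 in the same order for Pdcd1f/fLysMcre. The groups did not overlap, and Pdcd1f/f replicate 1 was the nearest to the other genotype. The means were 7598 ± 434 and 5833 ± 229 (log2 fold change -0.38, SE 0.07), and the difference was -0.40 without the libraries that stood apart. The antisense gene Gm10602 overlaps 63.1% of the exonic bases of Folr2. It had between 15 and 55 counts in each library, and the strand setting of the counting is not given in the sources used here.

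Timd4 (chromosome 11, 46810800 to 46844332, plus strand) encodes TIM-4, a receptor for phosphatidylserine on dying cells that marks long-lived resident macrophages in several tissues. Raw counts were 3, 2 and 7 with the Pdcd1f/f genotype (12 in sum) against 1, 2 and 2 with Pdcd1f/fLysMcre (5 in sum). These counts were too few for a comparison, and no fold change is given. A low level in both genotypes is thus the measurement for this member, and on this marker of long-lived resident cells the data go against the label of the list.

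Selenop (ENSMUSG00000064373, chromosome 15, 3268547 to 3280508, plus strand) encodes selenoprotein P, a secreted carrier of selenium. Normalized counts were 64632, 58496 and 58500 with the Pdcd1f/f genotype, and 39010, 41813 and 36056 with Pdcd1f/fLysMcre. The highest value of each genotype was in the library that stood apart, and the genotypes did not overlap. The means were 60543 ± 3541 and 38959 ± 2879 (log2 fold change -0.63, SE 0.07), and the value without the libraries that stood apart was -0.64.

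F13a1 (ENSMUSG00000039109, chromosome 13, 36867178 to 37050244, minus strand) encodes the A subunit of coagulation factor XIII, a transglutaminase that crosslinks fibrin and is made by macrophages and platelets. Normalized counts were 51201, 49432 and 48635 with the Pdcd1f/f genotype, and 29569, 31783 and 28666 with Pdcd1f/fLysMcre. The libraries of each genotype were close together. The means were 49756 ± 1313 and 30006 ± 1604 (log2 fold change -0.73, SE 0.06), with -0.76 without the libraries that stood apart. Of the platelet markers, Gp1bb was at 0 in all libraries and Gp9 had at most 1 count in a library. Treml1 had 17.6, 13.4 and 18.6 normalized counts with Pdcd1f/f, against 11.1, 8.57 and 5.90 with Pdcd1f/fLysMcre (log2 fold change -0.94, SE 0.40, edgeR adjusted p = 0.184), Itga2b had at most 29.6 in a library, and Ppbp was higher in every Pdcd1f/fLysMcre library. Their part in the F13a1 difference was not tested.

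Fcna (ENSMUSG00000026938, chromosome 2, 25624666 to 25628030, minus strand) encodes ficolin A, a secreted lectin that starts the lectin pathway of complement. In Pdcd1f/f replicates 1 to 3 its normalized counts were 916, 1035 and 939, against 1069, 931 and 1052 in the same order for Pdcd1f/fLysMcre. The libraries of the genotypes overlapped, and the means were 963 ± 62.9 and 1017 ± 74.9. The log2 fold change was 0.08 with an SE of 0.09, and it stayed between 0.04 and 0.17 over the 16 alternative fits. Fcna was thus the member with enough counts that was not lower in Pdcd1f/fLysMcre TAMs.

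Cbr2 (ENSMUSG00000025150, chromosome 11, 120729489 to 120732114, minus strand) encodes a carbonyl reductase of the short-chain dehydrogenase family. In Pdcd1f/f replicates 1 to 3 its normalized counts were 3254, 3945 and 4368, against 2036, 1865 and 2173 in the same order for Pdcd1f/fLysMcre. The Pdcd1f/f libraries were spread widely, but all lay above the Pdcd1f/fLysMcre libraries. The means were 3856 ± 562 and 2024 ± 154, 47.5% lower, with a log2 fold change of -0.93 (SE 0.11) and of -0.99 without the libraries that stood apart.

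**Figure D2:**
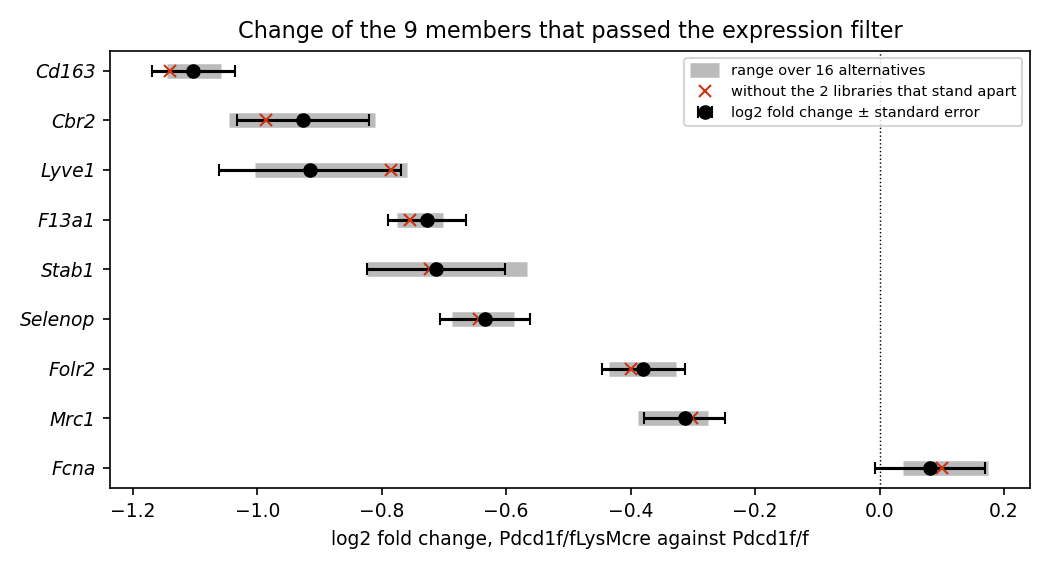
Log2 fold change of Pdcd1f/fLysMcre against Pdcd1f/f for the 9 members that passed the filter (points, with bars of 1 SE), with the range over 16 alternative fits in grey and the value without the 2 libraries that stood apart as a cross. Cd163, Cbr2 and Lyve1 were the furthest below 0, Folr2 and Mrc1 were nearest to it among the lower members, and Fcna lay at 0.08.

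Normalized counts divided by the exonic length in kb were used to set the levels of the members beside each other. In Pdcd1f/f TAMs Mrc1 (21581 ± 1208 per kb) and Selenop (21303 ± 1246 per kb) were the most abundant. The ranges of their libraries overlapped, although Mrc1 was above Selenop within each library. F13a1 (7383 ± 195 per kb), Stab1 (6011 ± 804 per kb), Folr2 (4915 ± 280 per kb) and Cbr2 (2906 ± 424 per kb) followed, and neighbors among these 4 did not overlap in their libraries, although the lowest Stab1 library (5132 per kb) was next to the highest Folr2 library (5130 per kb). Cd163 (851 ± 48.1 per kb), Fcna (701 ± 45.8 per kb), Lyve1 (127 ± 3.17 per kb) and Timd4 (1.95 per kb) were lower still, again without overlap between neighbors.

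In Pdcd1f/fLysMcre TAMs Mrc1 (17343 ± 825 per kb) was also above Selenop (13708 ± 1013 per kb), here without overlap of their ranges. The order changed in some places further down. F13a1 was at 4453 ± 238 per kb, and Stab1 (3662 ± 442 per kb) and Folr2 (3773 ± 148 per kb) overlapped. Cbr2 (1526 ± 116 per kb) came next, and Fcna (740 ± 54.5 per kb) was above Cd163 (396 ± 9.46 per kb), the reverse of their order in Pdcd1f/f TAMs. Lyve1 was at 67.3 ± 13.3 per kb.

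The genes with the largest relative difference were not those with the largest share of the summed difference. The levels per kb of the 9 members summed to 67099, 64845 and 65388 for Pdcd1f/f, against 46175, 46778 and 44049 for Pdcd1f/fLysMcre. Selenop accounted for 37.7% of the summed difference per kb of the 8 lower members, Mrc1 for 21.03%, F13a1 for 14.5% and Stab1 for 11.7%. Cbr2 made up 6.85% and Folr2 5.67%, whereas Cd163 and Lyve1, which had large relative differences, made up 2.26% and 0.297%.

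The members differed in how they varied among libraries of the same genotype. In the 2 libraries that stood apart, Pdcd1f/f replicate 1 and Pdcd1f/fLysMcre replicate 2, the genes of low GC content Mrc1 (6.46% and 4.14% above the genotype mean), Selenop (6.75% and 7.32%) and F13a1 (2.90% and 5.92%) were each the highest of their genotype. In the same libraries Stab1 deviated by -14.6% and -13.9%, Cbr2 by -15.6% and -7.89%, Folr2 by -6.45% and -4.40%, Fcna by -4.87% and -8.45%, and Lyve1 by -2.76% and -22.9%. These were the lowest values of their genotypes. The GC content was between 51.8% and 57.3% for Folr2, Fcna, Cbr2 and Stab1, but 45.8% for Lyve1, which is close to that of F13a1 (45.9%). Each genotype held 1 such library, which the choice by the sign of a deviation within the genotype largely builds in. With and without them, 8 members were lower in Pdcd1f/fLysMcre TAMs.

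**Figure D3:**
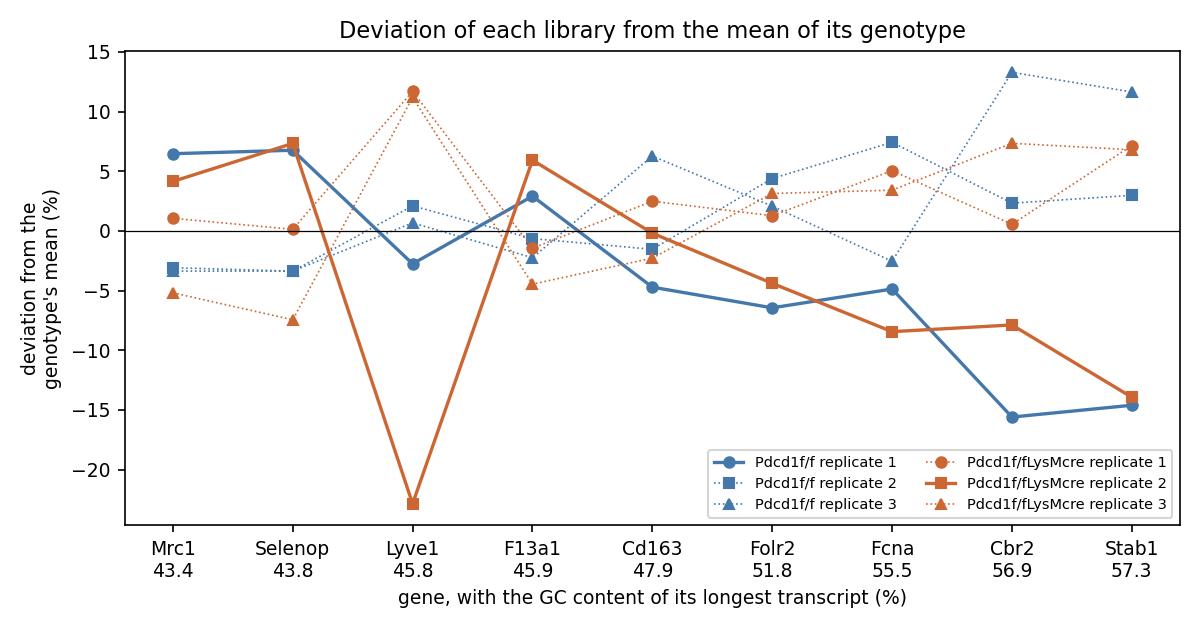
Deviation of each library from the mean of its genotype, in percent of that mean, for the 9 members that passed the filter, in order of the GC content of the gene's longest transcript, with Pdcd1f/f in blue and Pdcd1f/fLysMcre in orange. The solid lines (Pdcd1f/f replicate 1 and Pdcd1f/fLysMcre replicate 2) lie above 0 for Mrc1, Selenop and F13a1 and fall to -14.6% and -13.9% at Stab1, and the lines only join the points of a library.

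Patterns over the 6 libraries were compared in log2 CPM (counts scaled to the library total after TMM adjustment). The genes most like the mean of the standardized values of the 9 members were Cd300c2 (Pearson r = 0.997), Pnpla7 (0.997), Mid1 (0.996), Gabarapl1 (0.996) and Rps3 (0.996), among 11479 genes with a mean of at least 50 counts. The 6 points share 2 genotypes, and no p is given. The fold changes of these genes spanned a wide range, with log2 values of -1.78 for Mid1, -0.48 for Cd300c2, -0.41 for Pnpla7, -0.28 for Gabarapl1 and -0.19 for Rps3.

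Lists of other genes were counted in the same fit over all genes. The lists were written with earlier results of this contrast known, so their counts describe the named genes and are not independent evidence that the difference extends beyond the members. Of 30 other genes of resident and homeostatic macrophages 23 were tested, and 12 fell and 0 rose in Pdcd1f/fLysMcre TAMs with edgeR (16 lower and 0 higher at an unadjusted p under 0.05, and 12 lower and 0 higher with DESeq2), beside 3.01% of all genes that fell. Their median log2 fold change was -0.44. The count was 15 without the libraries that stood apart, 6 without Pdcd1f/f replicate 2 and 7 without Pdcd1f/fLysMcre replicate 1.

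Apoe, which encodes the lipid carrier apolipoprotein E, had 119625, 163184 and 179360 normalized counts with the Pdcd1f/f genotype, against 77902, 68830 and 89384 with Pdcd1f/fLysMcre. It fell by 0.97 on the log2 scale (SE 0.14, edgeR adjusted p = 0.00340). Fcgrt, the neonatal Fc receptor that recycles IgG, fell from 4983 ± 670 to 2868 ± 200 (log2 fold change -0.79, SE 0.10, adjusted p = 0.00154). Siglec1, the sialic acid receptor CD169 of resident macrophages, fell from 7508 ± 1004 to 4478 ± 461 (-0.74, SE 0.11, adjusted p = 0.00320). Mertk, a receptor for the uptake of dying cells, fell from 5950 ± 186 to 3890 ± 103 (-0.61, SE 0.06, adjusted p = 3.6e-04). The libraries of the genotypes did not overlap for any of these 4 genes, and each was past the threshold whichever of the 6 libraries was left out.

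The other genes that fell included Gas6, Ccl8, Igf1, Rnase4, C1qa, C1qb and C1qc, of which Igf1 passed the threshold in 2 and C1qa and C1qb in 3 of the 6 fits that left out 1 library. The 11 tested genes that did not pass included Dab2, an endocytic adaptor (log2 fold change -0.08, adjusted p = 0.484), the chemokine Pf4 (-0.14, adjusted p = 0.166), the endothelin receptor Ednrb (-0.0019, adjusted p = 0.991) and Cd5l, a secreted protein of several resident macrophages (0.10, adjusted p = 0.819). The untested genes were Cd209b, Cd209d, Cd209f, Cd209g, Vsig4, Marco and Clec4f. Vsig4, a complement receptor of resident macrophages, had at most 5.55 normalized counts in a library, and Clec4f, a marker of Kupffer cells of the liver, was at 0 in all.

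Transcription factors of resident macrophages were mostly not past the threshold. Of 12 tested, 3 fell and 1 rose, beside 3.01% and 2.42% of all genes, with a median log2 fold change of -0.17. Maf, a factor linked to resident macrophage identity, fell by 0.26 (SE 0.06, edgeR adjusted p = 0.0391) on the log2 scale. Rxra, a nuclear receptor partner, fell by 0.42 (SE 0.09, adjusted p = 0.0313). Spic, a factor of red pulp and other iron-handling macrophages, rose from 604 ± 59.7 to 869 ± 71.9 normalized counts (0.52, SE 0.10, adjusted p = 0.0150). The count of 4 became 0 when Pdcd1f/f replicate 2, Pdcd1f/f replicate 3 or Pdcd1f/fLysMcre replicate 1 was left out (between 5 and 6 at an unadjusted p under 0.05), 1 without Pdcd1f/fLysMcre replicate 2, and 6 without Pdcd1f/f replicate 1 or without both libraries that stood apart. Nr1h3, Id3, Id1, Gata6, Klf2, Klf4, Tfec and Mef2c did not pass.

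Paralogs and pathway partners of the members were examined next, and 29 of 40 were tested. With edgeR 2 rose and 2 fell, beside 2.42% and 3.01% of all genes (4 higher and 8 lower at an unadjusted p under 0.05, and 2 higher and 5 lower with DESeq2). Their median log2 fold change was -0.13. Gpx3, a secreted selenoprotein like the product of Selenop, fell from 215 ± 3.53 to 114 ± 17.4 normalized counts (log2 fold change -0.91, SE 0.15, adjusted p = 0.00603). Dcxr, a reductase related to Cbr2, fell (-0.62, SE 0.15, adjusted p = 0.0439), but it passed in 2 of the 6 fits that left out 1 library. Cd44, the main hyaluronan receptor of leukocytes and a relative of Lyve1 in its link domain, rose from 65605 ± 3251 to 84658 ± 3466 (0.37, SE 0.06, adjusted p = 0.00824). Txnrd1, a thioredoxin reductase with selenium, rose (0.33, SE 0.06, adjusted p = 0.00801). The count of 4 was 12 (2 higher and 10 lower) without the libraries that stood apart or without Pdcd1f/f replicate 1, and 1 without Pdcd1f/f replicate 2 or Pdcd1f/fLysMcre replicate 1.

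Other tested paralogs and receptors of the members did not pass the threshold. The reductases Cbr1 (log2 fold change -0.29, adjusted p = 0.0954), Cbr3 (-0.48, adjusted p = 0.0674) and Cbr4 (-0.06, adjusted p = 0.767) are relatives in function of Cbr2. Among the mannose receptor family, Mrc2 (0.22, adjusted p = 0.545), Ly75 (0.47, adjusted p = 0.138) and Pla2r1 (-0.41, adjusted p = 0.377) had between 23.1 and 118 normalized counts in each library. Tgm2, a tissue transglutaminase related to F13a1, had a log2 fold change of -0.0019 (adjusted p = 0.993), and Tgm1 of -0.24 (adjusted p = 0.350). Lrp8, a receptor for selenoprotein P, had a log2 fold change of 0.22 (adjusted p = 0.305), and Havcr2, a relative of Timd4, of 0.15 (adjusted p = 0.176). F13b, Timd2, Mbl1, Mbl2 and Cd163l1 were at 0 in all libraries, and Folr1, Stab2, Fcnb and Havcr1 were too low to test.

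Markers of the sorted cells and of other cells were set beside these changes. Of the 8 genes of the macrophage gate, 3 fell and 0 rose with edgeR, beside 3.01% and 2.42% of all genes (4 lower and 1 higher at an unadjusted p under 0.05, and 4 lower and 0 higher with DESeq2). These included Adgre1, which encodes F4/80 (32377 ± 1312 to 24793 ± 366, log2 fold change -0.38, SE 0.06, adjusted p = 0.00496), and the growth factor receptor gene Csf1r (-0.32, SE 0.07, adjusted p = 0.0308). Ptprc (0.11), Itgam (-0.16), Cd68 (-0.06), Cd14 (0.15) and Fcgr1 (-0.21) were not past the threshold. The sum of the 8 ranged from 287625 to 313341 normalized counts in Pdcd1f/f and from 271564 to 274743 in Pdcd1f/fLysMcre. The part of this difference in the result for the members was not tested.

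Classical monocyte genes had a median log2 fold change of -0.02. Of the 12 tested 1 fell and 1 rose with edgeR, beside 3.01% and 2.42% of all genes (5 higher and 1 lower at an unadjusted p under 0.05, 4 higher and 1 lower with DESeq2, and 5 higher and 1 lower with the offsets for GC content and length). Lyz1 rose by 4.54 on the log2 scale (SE 0.12, edgeR adjusted p = 8.8e-09), but it is a near-identical copy of Lyz2, and how reads that map to both genes were counted is not given in the sources used here. Ly6c2 (-0.06), Ccr2 (-0.01), Plac8 (-0.02) and Chil3 (-0.05) did not pass. The count of 2 was 8 without the libraries that stood apart (5 higher and 3 lower), 5 without Pdcd1f/f replicate 1 and 1 without Pdcd1f/fLysMcre replicate 1.

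**Figure D4:**
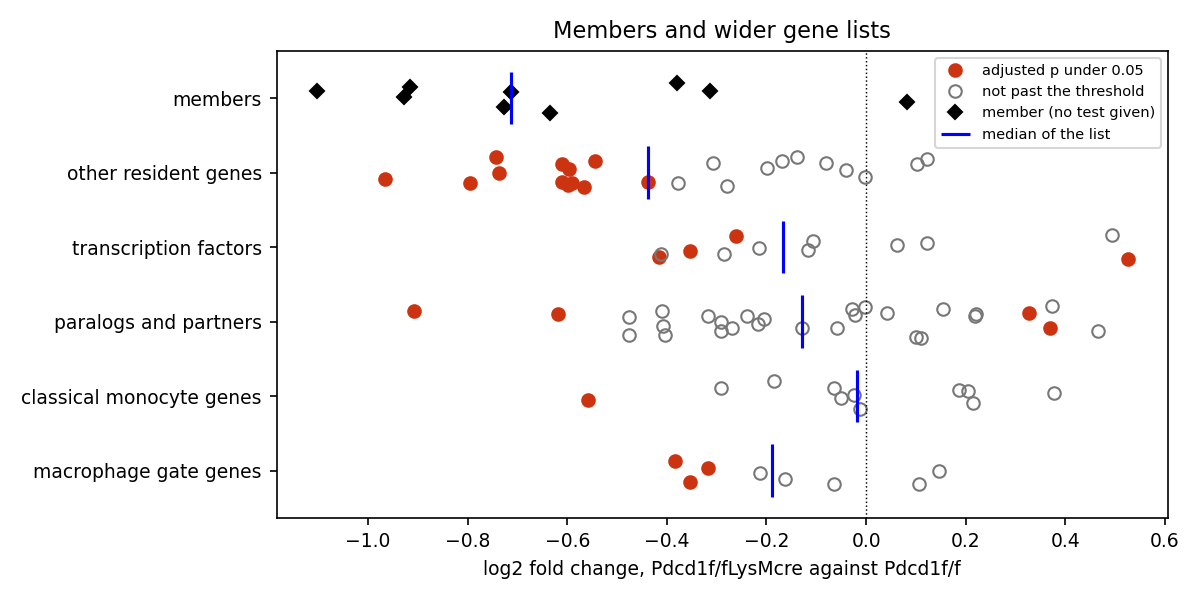
Log2 fold change of Pdcd1f/fLysMcre against Pdcd1f/f for the members (black, no test given) and the tested genes of 5 other lists, filled red where the edgeR adjusted p was under 0.05, with a blue line at the median of each list. Medians were -0.71 for the members, -0.44 for other resident genes and -0.02 for classical monocyte genes, and Lyz1 at 4.54 lies outside the axis and is not drawn.

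Markers of cells outside the gate were summed in the same way. The sums overlapped between the genotypes for endothelium and fibroblasts, were lower in all Pdcd1f/fLysMcre libraries for neutrophils and lymphoid cells, and were higher in all of them for dendritic cells and for the lists that hold Pdpn and Ppbp. Summed normalized counts of blood endothelium ranged from 946 to 988 in Pdcd1f/f and from 931 to 991 in Pdcd1f/fLysMcre, and those of fibroblasts and the implanted tumor from 3070 to 3328 and from 2934 to 3236. Neutrophil markers ranged from 4036 to 4388 and from 3649 to 3958, dendritic cell markers from 247 to 323 and from 329 to 392, and markers of T, B and NK cells from 192 to 223 and from 135 to 162. The fibroblast sum was mostly Dcn and Col3a1, while Col1a2 fell from 132 ± 12.7 to 65.6 ± 12.0 (edgeR adjusted p = 0.0121) and Col1a1 did not pass (-0.78, adjusted p = 0.145). The neutrophil sum followed Mmp8 (2317 ± 86.0 in Pdcd1f/f and 1659 ± 87.4 in Pdcd1f/fLysMcre), whereas the means of S100a8 (1253 and 1472) and S100a9 (575 and 626) were higher in Pdcd1f/fLysMcre. The lymphoid sum was mostly Cd79b (181 ± 16.8 and 126 ± 13.4). The lymphatic list, to which Lyve1 is related, ranged from 12522 to 14133 and from 18438 to 20926, of which Pdpn, also a gene of macrophages, made up almost all (log2 fold change 0.56, edgeR adjusted p = 0.00163). The list of mast cells and platelets, of which platelets share F13a1, ranged from 4390 to 4550 and from 7349 to 8702, of which almost all was the chemokine gene Ppbp (0.83, adjusted p = 2.0e-04). The part of the other cells in the result for the members was not tested.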

How the data were processed

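RNA-seq libraries of sorted TAMs were deposited by the authors as a table of raw counts per Ensembl gene. Per the labels and the methods of the study, stranded polyA libraries were sequenced as paired ends, trimmed with cutadapt 2.5, aligned to GRCm38 with STAR 2.7.3a and counted with featureCounts (Subread 1.6.2). The strand setting and the treatment of multi-mapped reads are not given in the sources used here. A second deposited table holds a normalized signal for 16552 genes, the counts divided by 1 DESeq2 size factor per library by the authors, and these values are the normalized counts of the text. All 6 columns of both tables were used. Counts of genes outside that table, such as Timd4 and Vsig4, were divided by the same factors.

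Raw counts of all 6 libraries were fitted with edgeR 4.0.16 (R 4.3.3) with filterByExpr (minimum count of 10, minimum total of 15), TMM, robust glmQLFit and the two-sided glmQLFTest, with Benjamini-Hochberg adjustment over 14469 genes and a threshold of 0.05. Fold changes and SEs of the members came from this fit. Positions, exonic length and GC content came from the GENCODE annotation of GRCm38, and promoter windows from RefSeq (GRCm38.p6). Precision was limited by 3 libraries per genotype, and a floor of 3 counts equals 0.0583 to 0.0717 CPM (counting error alone).

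The members and gene lists were chosen with earlier results of these data known. Named were the 10 members, Pdcd1, Lyz2 and the sex-linked transcripts as label checks, up to 5 called genes with the largest change of each other list, tested paralogs and receptors of the members, the 5 genes most like the members' mean pattern (log2 CPM with a prior count of 2), and summed cell type markers. Other genes, such as those of the lists that did not pass and the markers at 0, were named after their values were seen. Some genes that this rule names are not reported here.

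Alternatives were DESeq2 1.42.0, scaling by RLE or by the library total, filters of at least 1 count in any and at least 10 counts in every library, limma-trend (limma 3.58.1) on the normalized values (log2, pseudocount of 1), a replicate block, loess offsets (span 0.5) for GC content and length, alone and together with that block, leaving out each library, both libraries that stood apart left out, and a threshold of 0.01. The scripts were tested on simulated data.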

Additional observations from a re-analysis of the deposited data

How the results depend on the processing

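None of the 9 members that passed the filter changed direction under any of the 16 alternative fits, and the median log2 fold change of the 9 members stayed between -0.73 and -0.66. For Mrc1 the offsets for GC content and length moved the value to -0.39, and to -0.39 with the replicate block. The number of all genes called (786) was 1951 for all genes with at least 1 count, 1517 with DESeq2, 2742 with the offsets, 2817 with the offsets and the replicate block, 3757 without both libraries that stood apart and 283 at a threshold of 0.01. With the offsets 1622 genes were higher and 1120 lower, against 350 and 436 without them. When 1 library was left out the number ranged from 222 to 3181, with 222 without Pdcd1f/fLysMcre replicate 1, 224 without Pdcd1f/f replicate 2, 354 without Pdcd1f/f replicate 3, 370 without Pdcd1f/fLysMcre replicate 2 and 3181 without Pdcd1f/f replicate 1. The cause was not tested. Deviations from the genotype means of samples with the same number had correlations of -0.01, -0.10 and 0.22. These values cannot decide whether the numbers pair the libraries, since the libraries that stood apart have different numbers in the 2 genotypes. The replicate block gave 1027 calls.

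Of the lists, other resident genes (12 called) ranged from 6 to 13 when 1 library was left out and from 8 to 15 in the other fits. Transcription factors (4) gave 0 at a threshold of 0.01 with edgeR (6 at an unadjusted p under 0.05, and 5 with DESeq2 at its adjusted threshold of 0.05), and from 0 to 6 when 1 library was left out. Paralogs and partners (4) gave 8 for all genes with at least 1 count, 7 with DESeq2, 7 with the replicate block, 12 with the offsets, 11 with the offsets and the block, 12 without both libraries that stood apart, and from 1 to 12 when 1 library was left out. Monocyte genes (2) gave 5 for all genes with at least 1 count, 5 with DESeq2, 6 with the offsets, 6 with the offsets and the block, 8 without both libraries that stood apart, 1 at a threshold of 0.01, and from 1 to 5 when 1 library was left out. Depth limited Pdcd1 and Timd4, whose counts were too few to compare the genotypes.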
